A study of Mus musculus with 8 samples.

Results

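Ncald, Baalc, Rims2 and Lrp12 are 4 genes that follow each other, with other genes between them, on mouse chromosome 15. They were chosen by name, as genes of one neighbourhood whose brain signal tended to differ between 2 parental duplications, out of 9607 genes with a single gene symbol on the array. All 7 of their probe sets are described here, 1 for Ncald, 2 for Baalc, 3 for Rims2 and 1 for Lrp12. Of these, 6 were bright enough to be tested and 1, of Rims2, lay far below the median of every array.

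RNA came from T9H/+ mice, and every animal of the study carried this exchange of segments between chromosomes 7 and 15 in 1 dose. In one kind of animal proximal chromosome 15 was duplicated from the father and proximal chromosome 7 from the mother, and in the other kind the parents were exchanged. They are called paternal-15 and maternal-15 here. There was 1 array of each kind for neonatal cortex (forebrain), neonatal cerebellum, whole brain at 15.5 days post coitum (dpc) and whole brain at 13.5 dpc, which makes 4 contexts and 8 arrays. Both segments changed parent together, so an effect of one cannot be told apart from an effect of the other. The labels give neither the breakpoints nor the sex or number of animals behind an array. Whether the 4 genes lie inside the duplicated part of chromosome 15 was not established. No sample of unduplicated animals was analysed here.

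Animals of this kind serve to find imprinted genes, which are read from the copy of one parent alone. A maternally expressed gene would be present in maternal-15 animals and missing in paternal-15 animals. That holds for genes inside the duplicated part. The 4 genes are known as genes of the nervous system rather than as an imprinted cluster. Ncald encodes neurocalcin delta, a calcium sensor that binds membranes when calcium rises. Rims2 encodes RIM2, a scaffold of the presynaptic active zone that binds Rab3 on synaptic vesicles, Munc13 and calcium channels. Baalc encodes a small membrane-bound protein of neural tissue and blood progenitors that binds the kinase CaMKII. Lrp12 encodes a transmembrane receptor with repeats of the low-density lipoprotein receptor type.

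Values are MAS5 signals on a linear scale, and log2 values are log2(signal + 58.5), which understates the change of dim probe sets. The array medians lay between 229.8 and 286 signal units, and a probe set was tested if it exceeded the median on at least 2 of 8 arrays, which 13221 did. Cortex markers were placed as labelled, with 4 of 5 higher in cortex and 0 lower, and of 5 cerebellum markers Tfap2b passed the test as higher in cerebellum. The 13.5 dpc maternal-15 array stood apart from the others in one respect that touches Rims2 and Lrp12. It held the lowest of the 8 signals for 17.1% of all tested probe sets, against 8.30% to 14.7% for the other arrays, and results that rest on it are given with and without it. No context had a replicate of its own. P-values therefore measure only the spread between these arrays, which may be technical, and with 8 arrays the precision is low. In the fit of context and duplication, the spread of a probe set is how its duplication difference varied between contexts. That spread may thus also hold real differences.

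In the duplication comparison, 4 of the 6 tested probe sets were higher in the maternal-15 array in all 4 contexts. They were that of Ncald, both of Baalc and 1443215_at of Rims2. The probe set of Lrp12 was higher in the paternal-15 array in all 4 contexts. The members were chosen on this comparison, so these signs are a description and were not tested. Over all tested probe sets, 9.67% were higher in maternal-15 and 9.08% higher in paternal-15 arrays in 4 of 4 contexts, 18.7% in all, and limma called 1 (0.00756%) between the duplications. None of the 6 lay below the array median in all 4 arrays of one kind.

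**Figure D1:**
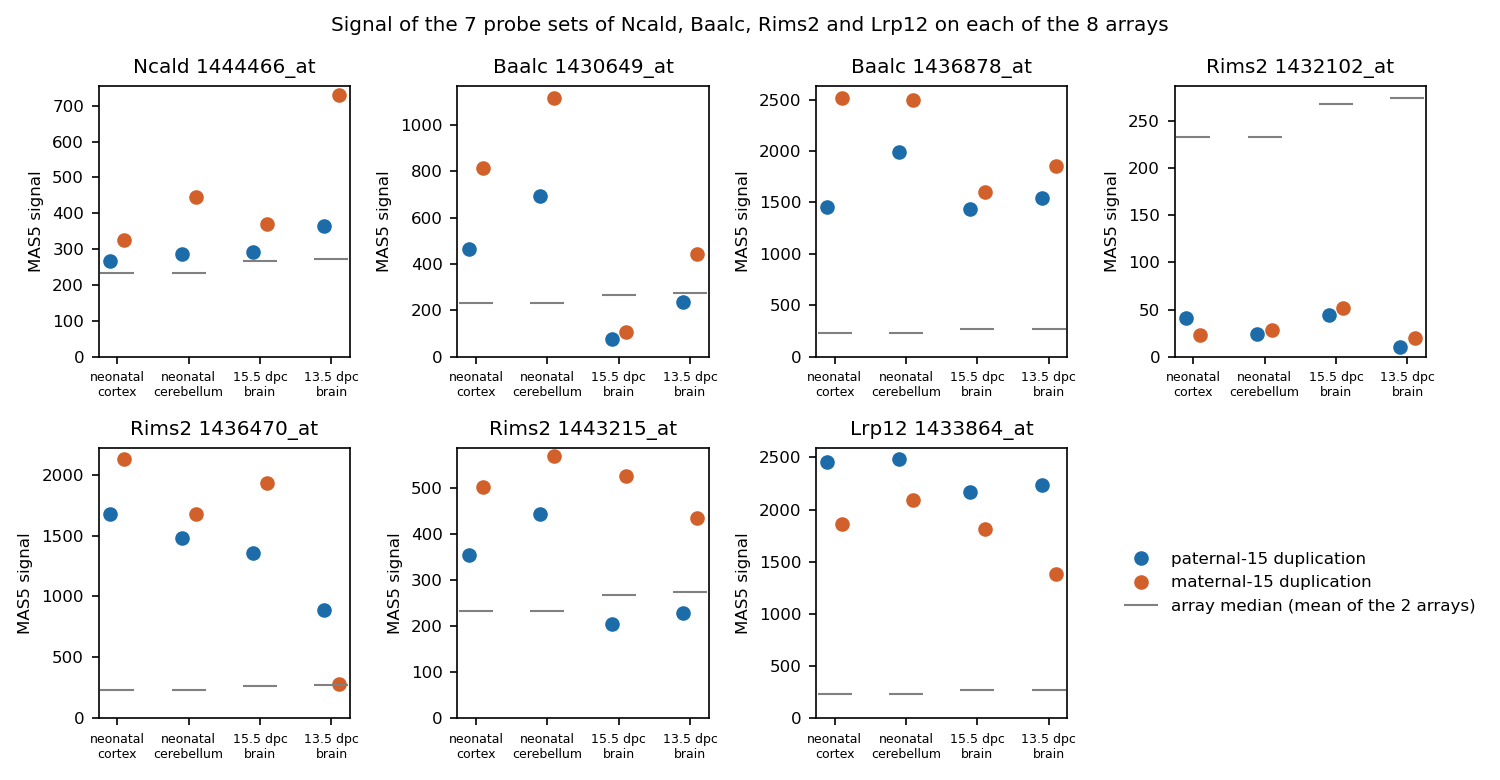
MAS5 signal (linear axis from 0) of each of the 7 probe sets on the 8 arrays, by context, with paternal-15 arrays in blue, maternal-15 arrays in orange and the array median as a grey line. Orange lies above blue in all 4 contexts for Ncald, both Baalc probe sets and Rims2 1443215_at, blue lies above orange for Lrp12, and Rims2 1436470_at changes order at 13.5 dpc (278 against 888 signal units).

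Ncald was measured by 1444466_at alone. In paternal-15 arrays the signal was 268 units for cortex, 285 for cerebellum, 291 for 15.5 dpc brain and 364 for 13.5 dpc brain. In maternal-15 arrays it read 326, 445, 370 and 730 in the same order. Each maternal-15 array was higher than its partner, by ratios of 1.21, 1.56, 1.27 and 2.01. Groups overlapped over contexts, because the 13.5 dpc paternal-15 array exceeded the maternal-15 cortex array. The mean log2 difference, paternal-15 minus maternal-15, was -0.49 ± 0.30 (SD, n = 4 contexts), and -0.36 without the 13.5 dpc pair. All signals were low, between 1.13 and 2.56 times the median of their array.

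Baalc had a bright and a dim probe set. The bright one, 1436878_at, read 1456, 1986, 1439 and 1539 in paternal-15 arrays, with contexts in the order given for Ncald. In maternal-15 arrays it read 2518, 2497, 1606 and 1856. The duplications differed most in cortex, with a ratio of 1.73 of maternal-15 over paternal-15, and least at 15.5 dpc, with 1.12. The dim one, 1430649_at, read 465, 691, 76.0 and 235 in paternal-15 arrays and 815, 1115, 106 and 441 in maternal-15 arrays, in the same order of contexts. Its maternal-15 over paternal-15 ratios were 1.75 in cortex and 1.61 in cerebellum. At 13.5 dpc the paternal-15 signal lay below its array median, which makes the ratio at least 1.69. Both 15.5 dpc arrays lay below their medians, so no ratio is given there. The mean log2 differences were -0.38 ± 0.27 for 1436878_at and -0.61 ± 0.22 for 1430649_at (SD, n = 4 contexts). Both probe sets of Baalc thus stood on the same side in cortex, in cerebellum and at 13.5 dpc. Their ratios were about the same in cortex and unequal in cerebellum and at 13.5 dpc. At 15.5 dpc the dim one was at background, so its side there carries no weight, though its mean includes that pair.

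Rims2 gave different pictures through its 3 probe sets. The brightest, 1436470_at, read 1673, 1483, 1355 and 888 in paternal-15 arrays, again from cortex to 13.5 dpc. In maternal-15 arrays it read 2128, 1679, 1929 and 278. The maternal-15 array was the higher one in 3 contexts, by ratios of 1.27, 1.13 and 1.42, while at 13.5 dpc the paternal-15 array was higher by at least 3.11-fold. The maternal-15 signal there lay just below its array median, and the fold is taken against that median. Its mean log2 difference was 0.12 ± 0.92 (SD, n = 4 contexts), and without the 13.5 dpc pair it was -0.33. The second probe set, 1443215_at, read 355, 443, 205 and 228 in paternal-15 arrays and 502, 569, 526 and 433 in maternal-15 arrays. It was higher in maternal-15 arrays in all contexts, with ratios of 1.41 in cortex, 1.28 in cerebellum, at least 2.05 at 15.5 dpc and at least 1.66 at 13.5 dpc, and its mean log2 difference was -0.67 ± 0.37. The bounds are against the array median, since both embryonic paternal-15 signals lay below it. The third probe set, 1432102_at, ranged from 9.93 to 51.3 signal units, at most 0.185 times the array median, and was not tested.

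The 13.5 dpc maternal-15 array decided how far the Rims2 probe sets resembled each other. Over 8 arrays, log2 signals of 1436470_at and 1443215_at had a Pearson correlation of 0.212, and without that array 0.774 over 7. The arrays share contexts and duplications, so this is a description of these arrays. The files do not say which part of the transcript each probe set targets.

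Lrp12 was the one gene with the opposite direction. Its probe set, 1433864_at, read 2454, 2482, 2166 and 2232 in paternal-15 arrays, in the same order of contexts. In maternal-15 arrays it read 1857, 2087, 1815 and 1386. The lowest paternal-15 array exceeded the highest maternal-15 array, so these groups did not overlap over contexts. Lrp12 was chosen on this comparison, and the share of all tested probe sets without such overlap was not counted. Ratios of paternal-15 over maternal-15 were 1.32, 1.19, 1.19 and 1.61, and the mean log2 difference was 0.39 ± 0.20 (SD, n = 4 contexts), or 0.29 without the 13.5 dpc pair. All signals were between 4.85 and 10.6 times the array median.

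**Figure D2:**
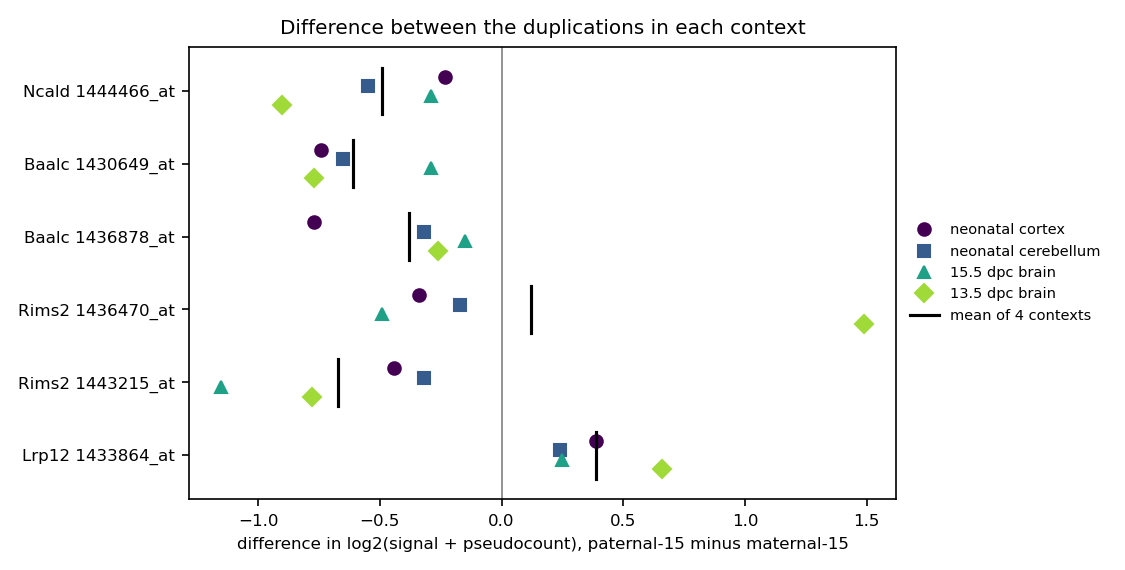
Difference in log2(signal + 58.5), paternal-15 minus maternal-15, of the 6 tested probe sets in each of the 4 contexts (symbols), with the mean over contexts as a bar. All symbols of Ncald, Baalc and Rims2 1443215_at lie left of 0 and those of Lrp12 right of it, and the 13.5 dpc symbol of Rims2 1436470_at lies at 1.49 while its other 3 lie between -0.49 and -0.17.

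Differences of these sizes were also seen in other probe sets of the same pairs of arrays. Over all tested probe sets, the SD of the log2 difference between both arrays of a context was 0.399 (cortex), 0.416 (cerebellum), 0.576 (15.5 dpc) and 0.531 (13.5 dpc), with medians between -0.03 and 0.01. In cortex, 5.54% of all probe sets lay as far from 0 as Baalc 1436878_at, and 6.13% as far as 1430649_at. At 13.5 dpc, 8.49% lay as far from 0 as Ncald, 15.6% as far as Lrp12 and 2.24% as far as Rims2 1436470_at. At 15.5 dpc, 5.61% lay as far from 0 as Rims2 1443215_at, while for Ncald, Lrp12 and both Baalc probe sets between 52.2% and 73.5% did. These shares describe single pairs and are no test.

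The duplication difference was also compared between neonatal and embryonic contexts, a contrast other than the one that chose the genes. For 1443215_at of Rims2 the difference of differences was 0.58 ± 0.26 (SE, limma adjusted p = 0.556), and for 1436470_at it was -0.75 ± 0.65 (adjusted p = 0.715). Ncald stood at 0.21 ± 0.31, Lrp12 at -0.14 ± 0.27, and Baalc at -0.17 ± 0.28 (1430649_at) and -0.34 ± 0.27 (1436878_at), with adjusted p-values from 0.700 to 0.882. None of the 6 was called, and limma called 0 of the 13221 probe sets (0.0%), with 1209 at an unadjusted p under 0.05. With 2 residual degrees of freedom, a p that misses the threshold does not show that the duplications differed alike at both ages. On simulated data this fit called 0% of the probe sets that were given a log2 difference of 1, and 0% at 2. The absence of calls here therefore says nothing about the members.

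Marker genes of cell types were set beside the duplication differences. Of 16 listed neuronal markers 4 were measured (Map2, Rbfox3, Rbfox1 and Nefl). Their summed signal ranged from 20360 to 55170 in paternal-15 arrays and from 13710 to 50420 in maternal-15 arrays, and was higher in the maternal-15 array in 1 of 4 contexts. Lrp12 stood on the side of these markers and Ncald and Baalc on the other. Of 12 progenitor markers 3 were measured, with sums of 3526 to 8763 in paternal-15 and 2480 to 7983 in maternal-15 arrays. Sums of 5 cerebellum markers were lower in the maternal-15 array in 4 of 4 contexts. Of the 2 measured astrocyte markers and the 3 of choroid plexus, the sum was higher in maternal-15 in 2 and 1 of 4 contexts, the single markers of oligodendrocytes and endothelium in 0 and 3, and those of microglia and red blood cells were not on the array under these symbols. In whole tissue, fewer cells of a type and less RNA per cell cannot be told apart. The part of cell composition in the differences of the 4 genes was not tested.

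Neighbouring genes did not share 1 direction. From 10 annotated genes before Ncald to 10 after Lrp12 there were 72 genes in RefSeq gene order, of which 12 had a tested probe set, the 4 members included. Between Ncald and Lrp12 lie 50 annotated genes, many of them predicted. Of the 8 tested neighbours, 2 were higher in maternal-15 arrays in 4 of 4 contexts and 1 in paternal-15 arrays. Cthrc1, a secreted protein gene lying between Baalc and Rims2, ranged from 858 to 9032 signal units and had a mean log2 difference of -0.50 ± 0.26 (SD, n = 4 contexts). The clone-named 4930447A16Rik, near Ncald, stood at -0.26 ± 0.21. Azin1, an inhibitor of antizyme in polyamine control, stood at 0.15 ± 0.15 with 4 of 4 contexts higher in paternal-15.

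The other 5 tested neighbours changed sign between contexts. They were Fzd6, a Frizzled receptor (-0.12 ± 0.18), Slc25a32, a mitochondrial folate carrier (-0.21 ± 0.24), Rrm2b, a ribonucleotide reductase subunit (0.21 ± 0.49), Odf1 (-0.80 ± 0.86) and Dcstamp (0.22 ± 1.13). Odf1 and Dcstamp were dim, above the array median on 4 and 5 of 8 arrays. These 5 are named beyond the naming rule, after their values were seen. None of the 8 genes directly beside a member in gene order had a tested probe set (Grhl2, Gm8668, Gm45924, Gm33123, Gm9522, Gm46510, Gm16291 and AU022793). Along the whole chromosome without the 4 genes, 36 of 366 tested probe sets (9.84%) were higher in maternal-15 in 4 of 4 contexts and the same number in paternal-15, with a median difference of -0.02. On other chromosomes the shares were 8.61% and 10.3%. Among the 8 neighbours alone the median was -0.17, with 25.0% and 12.5%, which is 2 genes and 1 gene.

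**Figure D3:**
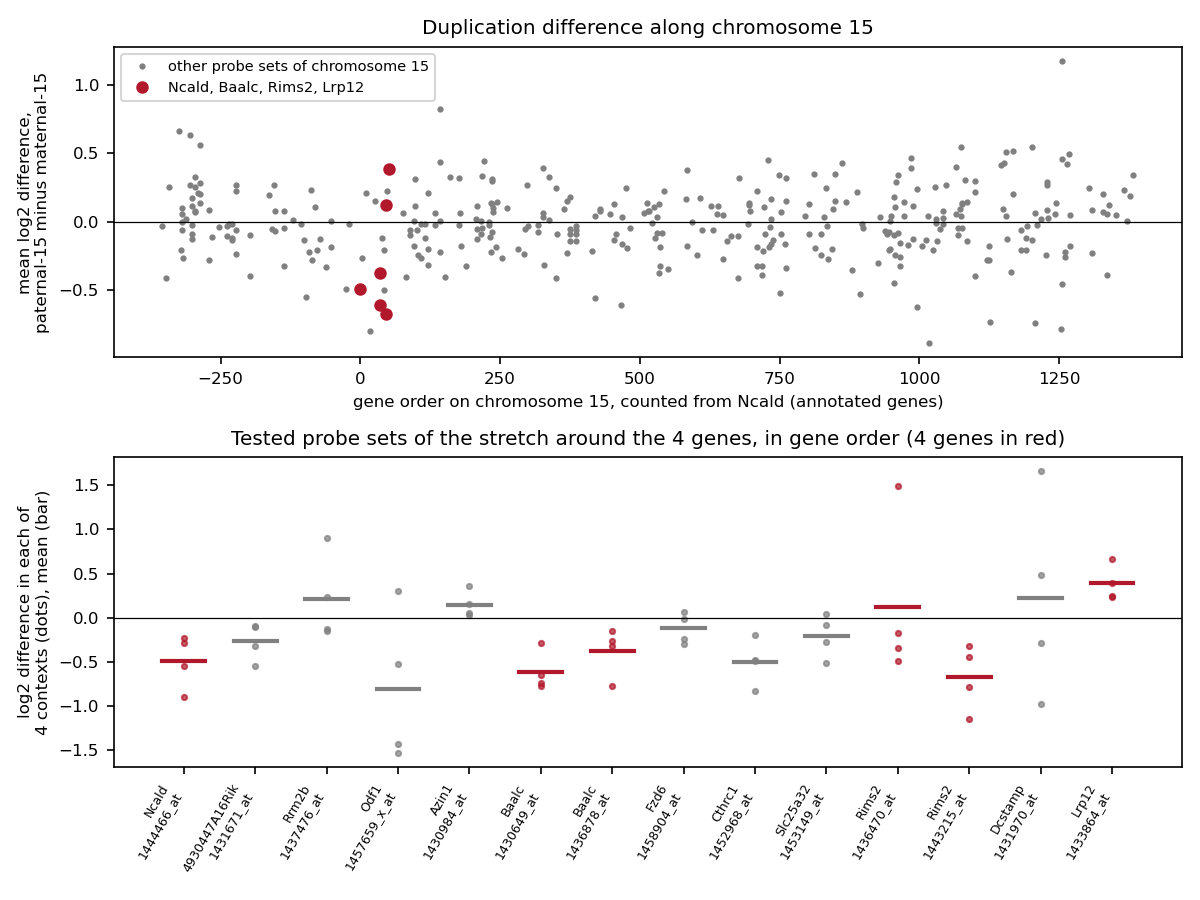
Top, mean log2 difference over 4 contexts (paternal-15 minus maternal-15) of every tested probe set of chromosome 15 against gene order counted from Ncald, with the 4 genes in red. Bottom, the tested probe sets of the stretch around them in gene order, with the 4 contexts as dots and the mean as a bar: Lrp12 and Azin1 lie above 0 in every context, and Cthrc1, 4930447A16Rik, Ncald and both Baalc probe sets below it.

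Across tissues and ages, which the choice of the genes did not use, 1 of the 6 probe sets passed the test in any contrast. A probe set that did not pass is not shown to be unchanged. The dim probe set of Baalc, 1430649_at, was higher in neonatal cortex and cerebellum than in embryonic whole brain, where age and the tissue dissected cannot be told apart. It read 771 ± 271 signal units in the 4 neonatal and 214.5 ± 166 in the 4 embryonic arrays (SD), and these groups did not overlap, as for 11.8% of all tested probe sets in this direction. On the log2 scale neonatal minus embryonic came to 1.74 ± 0.14 (SE, limma adjusted p = 0.000853), and over the alternatives tried the adjusted p lay between 9.96e-05 and 0.0114. Among all tested probe sets 30.7% were called in this contrast, 14.3% as higher in neonatal brain, so a call here was common. Of the 4 embryonic arrays 3 lay below their medians.

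The same probe set fell between the embryonic ages. It was at 90.8 ± 21.1 signal units at 15.5 dpc and 338 ± 146 at 13.5 dpc (SD, n = 2 arrays each), without overlap, as for 24.1% of all tested probe sets, and the log2 difference, 15.5 minus 13.5 dpc, was -1.37 ± 0.20 (limma adjusted p = 0.0206). Since both 15.5 dpc arrays lay below the median, the change is one of at least 1.21-fold, the geometric mean at 13.5 dpc over that of the 15.5 dpc array medians. In this contrast 6.59% of probe sets were called, 3.07% as lower and 3.52% as higher at 15.5 dpc. The call was lost on leaving out any one of the 4 neonatal arrays (adjusted p = 0.0549 or 0.0576), the 15.5 dpc maternal-15 array (0.0840) or the 13.5 dpc maternal-15 array (0.119). It was also lost without a filter on dim probe sets (0.0501).

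The bright Baalc probe set did not pass the test in these contrasts. It differed by 0.35 ± 0.15 between neonatal and embryonic brain (adjusted p = 0.116) and by -0.15 ± 0.21 between 15.5 and 13.5 dpc (adjusted p = 0.742). Its contexts ran from cerebellum (1986 and 2497) over cortex (1456 and 2518) and 13.5 dpc (1539 and 1856) to 15.5 dpc (1439 and 1606), each overlapping the next. The dim one had the same order of contexts, and its cortex, 13.5 dpc and 15.5 dpc arrays did not overlap each other. Over 8 arrays both had a Pearson correlation of 0.811 in log2 signal.

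Rims2 was lowest at 13.5 dpc in both tested probe sets, without passing the test. For 1436470_at the 15.5 minus 13.5 dpc difference was 1.57 ± 0.47 (limma adjusted p = 0.101), and both 15.5 dpc arrays were above both 13.5 dpc arrays, as for 22.5% of all tested probe sets. Neonatal minus embryonic was 0.87 ± 0.33 (adjusted p = 0.0845). Without the 13.5 dpc maternal-15 array these values were 0.66 (adjusted p = 0.282) and 0.42 (adjusted p = 0.114), and without its paternal-15 partner they were 2.48 (adjusted p = 0.0235) and 1.33 (adjusted p = 0.00469). With a trend of the variance on signal in the moderation they passed, at adjusted p = 0.0396 and 0.0428. For 1443215_at the differences were 0.06 ± 0.25 and 0.44 ± 0.17 (adjusted p = 0.917 and 0.0971). Its contexts overlapped their neighbours in order throughout, from cerebellum over cortex and 15.5 dpc to 13.5 dpc.

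Ncald was the one gene whose mean was higher in embryonic than in neonatal brain. Its neonatal minus embryonic difference was -0.30 ± 0.16 (adjusted p = 0.185) and its 15.5 minus 13.5 dpc difference -0.58 ± 0.22 (adjusted p = 0.187). The second value was -0.30 without the 13.5 dpc maternal-15 array, which held the highest Ncald signal. Its contexts ran from 13.5 dpc over cerebellum and 15.5 dpc to cortex, each overlapping the next. Lrp12 did not pass the test, with 0.23 ± 0.14 for neonatal minus embryonic (adjusted p = 0.232) and 0.17 ± 0.20 for 15.5 minus 13.5 dpc (adjusted p = 0.676). Its contexts overlapped throughout, with means from 1809 at 13.5 dpc to 2285 in cerebellum.

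Between neonatal cortex and cerebellum none of the 6 probe sets was called, where 0.325% of all tested probe sets were. At an unadjusted p under 0.05 there were 0 of the 6, and 1011 of all. The farthest from 0 was Baalc 1430649_at, at -0.47 ± 0.20 (limma adjusted p = 0.658), with 465 and 815 signal units in cortex and 691 and 1115 in cerebellum. The others lay between -0.23 and 0.25. In 0 of the 6 did the cortex and cerebellum arrays lie apart, against 19.6% of all tested probe sets with cortex above and 21.4% with cerebellum above.

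**Figure D4:**
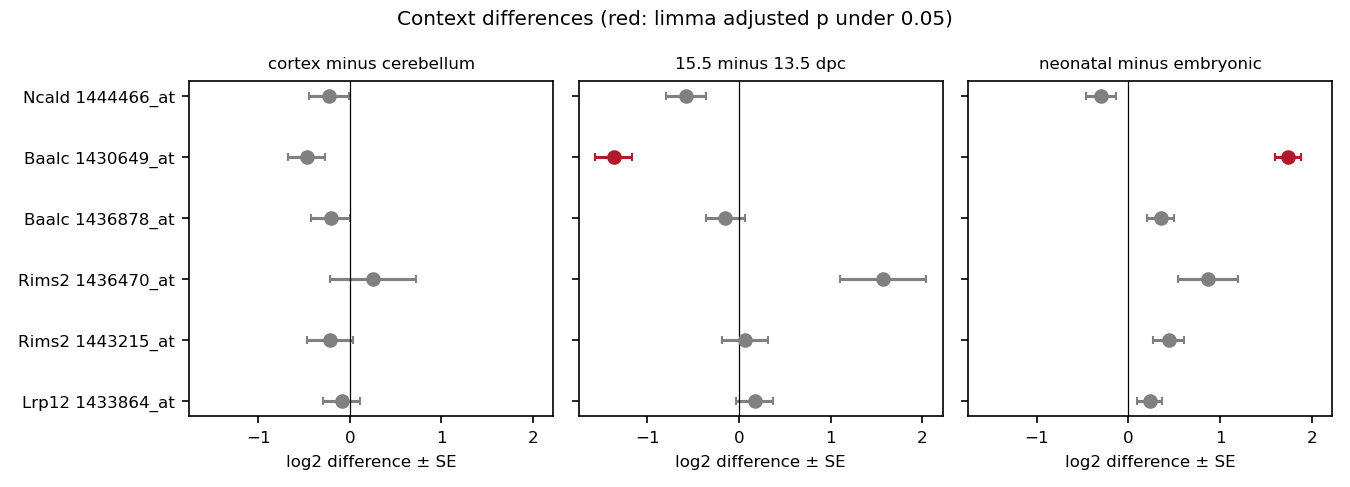
Log2 difference with its standard error of the 6 tested probe sets in the 3 context contrasts, with limma calls in red. Only Baalc 1430649_at is called, at 1.74 for neonatal minus embryonic and at -1.37 for 15.5 minus 13.5 dpc, and every standard error of Rims2 1436470_at is wider than those of the other probe sets.

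Genes of the proteins that work with RIM2 were mostly higher in neonatal than in embryonic brain. A list of 30 genes of the active zone and vesicle release had 19 measured, each by its brightest tested probe set. Neonatal over embryonic, 13 of the 19 rose and 0 fell, with a median log2 difference of 0.90 against -0.16 over all tested probe sets, of which 14.3% were called higher and 16.4% lower. Ppfia2, the scaffold liprin-alpha-2, rose by 1.84 ± 0.17 (limma adjusted p = 0.00115), and Syt1, the calcium sensor of vesicle fusion, by 1.59 ± 0.15 (0.00123). Rims3, a short RIM protein, rose by 1.35 ± 0.13 (0.00122), and Rph3a, which binds Rab3, by 1.22 ± 0.13 (0.00162). The 4 measured neuronal markers rose in this contrast too, 4 of 4 with a median of 1.14, and both astrocyte markers (median 1.08). How much of the rise of release genes follows the share of neurons was not tested.

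Between 15.5 and 13.5 dpc 5 of these 19 genes rose and 0 fell (median 0.61 against -0.02 over all tested probe sets, of which 3.52% were called higher). They were Rims3 (1.47 ± 0.18, adjusted p = 0.0136), Ppfia2 (1.61 ± 0.24, 0.0212), Rab3c (1.44 ± 0.25, 0.0276), Syt1 (1.12 ± 0.21, 0.0339), named beyond the rule, and Rph3a (0.0317), whose mean signals were 3344 and 1639. In 10 of the 19 the lowest signal of all was that of the 13.5 dpc maternal-15 array, as for Rims2 1436470_at. Without that array 0 of the 19 and 0 of all tested probe sets were called between the embryonic ages, with a median of 0.65 for the list, and 10 of the 19 rose between embryonic and neonatal brain. Rims1, the closest relative of Rims2, stood at 1.60 ± 0.43 between the embryonic ages (adjusted p = 0.0800) and rose by 1.39 ± 0.30 in neonatal brain (0.0165). Rims4 stood at 0.29 ± 0.14 in the second contrast (adjusted p = 0.156). Both were named after their values were seen. None of the 19 was called between cortex and cerebellum, where Unc13c stood at -0.55 ± 0.25, Rims3 at -0.49 ± 0.18 and Rab3c at -0.49 ± 0.25. Erc1 lay below the array median on both cortex arrays and on 1 of 2 cerebellum arrays, and no difference is given for it. Between the duplications 12 of the 19 had a mean above 0, and the median was 0.02.

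Measured calcium sensors of the family of Ncald were all higher in neonatal brain. Of 12 listed relatives 4 were measured and 4 of 4 rose from embryonic to neonatal brain, where 14.3% of all tested probe sets were called higher. Hpcal4, a hippocalcin-like sensor, rose by 3.20 ± 0.19 (limma adjusted p = 0.000574), Kcnip2, which lay below the array median on all embryonic arrays, by at least 2.11-fold (0.00254), Kcnip4 by 1.18 ± 0.13 (0.00193) and Ncs1, neuronal calcium sensor 1, by 0.97 ± 0.14 (0.00413). Kcnip2 and Kcnip4 bind potassium channels. Hpcal4 also rose between 13.5 and 15.5 dpc, by at least 3.88-fold (adjusted p = 0.00575), as it lay below the median on both 13.5 dpc arrays. In that contrast Kcnip4 (0.81 ± 0.19), Ncs1 (0.55 ± 0.20) and Kcnip2, at background at both ages, did not pass, and without the 13.5 dpc maternal-15 array 0 of 4 did. Kcnip2 alone differed by region, higher in cortex by 2.56 ± 0.28 (0.0293) with 1 of 2 cerebellum arrays above its median, a call that was lost without either 13.5 dpc array. Whether Ncald differed from these relatives was not tested.

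Among relatives of Lrp12 the count of calls depended on the scaling. Of 15 listed genes of the lipoprotein receptor family 8 were measured, and in neonatal against embryonic brain Lrp11 alone rose, by 1.27 ± 0.13 (limma adjusted p = 0.00146), with a list median of 0.31, where 14.3% of all tested probe sets were called higher. The count was 3 without the 13.5 dpc paternal-15 array and 4 with median-centred arrays. Between the embryonic ages Vldlr, a reelin receptor, rose by 0.89 ± 0.19 (0.0424) and Lrp11 by 0.83 ± 0.18 (0.0464), and both calls were lost without either 13.5 dpc array and with median-centred arrays. Sorl1 (0.60 ± 0.22), Lrp3 (0.52 ± 0.18) and Lrp8, the other reelin receptor (0.44 ± 0.14), did not pass in the neonatal contrast, and by region Sorl1 lay farthest from 0 (0.47 ± 0.31). Of 8 genes listed for their tie to Baalc 2 were measured. Camk2a, the CaMKII subunit of forebrain neurons, rose by 1.31 ± 0.17 in neonatal brain (0.00301) and by 1.13 ± 0.24 between the embryonic ages (0.0454), the second not without either 13.5 dpc array. Camk2d stood at 0.01 ± 0.16 and 0.40 ± 0.23. Cortex minus cerebellum was 1.04 ± 0.24 for Camk2a and -0.35 ± 0.23 for Camk2d, neither of them called. Both had higher maternal-15 signals in 4 of 4 contexts, as 9.67% of all tested probe sets did, with means of -0.60 ± 0.37 and -0.33 ± 0.33. Camk2a had 4 tested probe sets and Camk2d 2, and only the brightest of each is given.

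**Figure D5:**
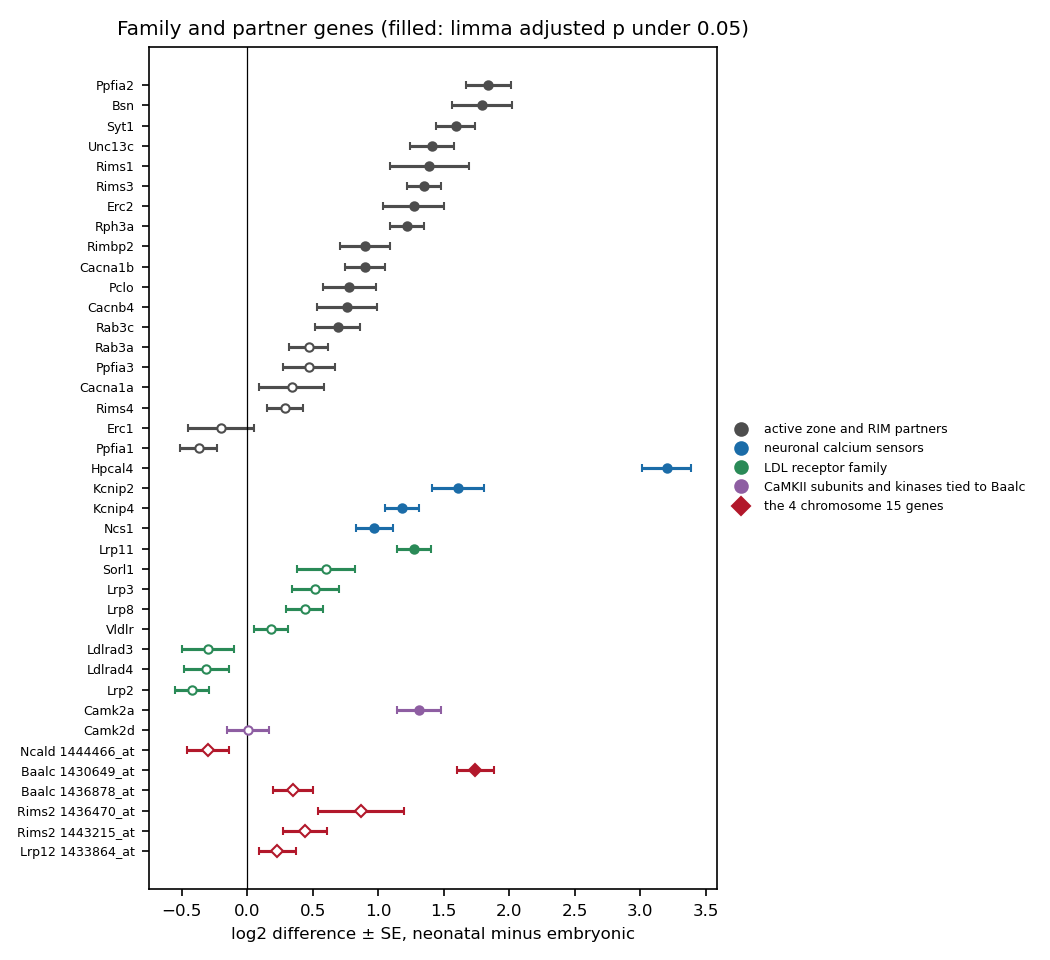
Log2 difference with its standard error, neonatal minus embryonic, of the measured genes of the 4 lists (circles, brightest tested probe set of each) and of the 6 probe sets of the 4 chromosome 15 genes (red diamonds), filled where limma called them. All 4 calcium sensors and 13 of 19 release genes are filled, and of the red diamonds only Baalc 1430649_at is.

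The scale of the arrays matters for the neonatal contrast, since the array medians themselves differed by -0.18 log2 units, neonatal minus embryonic, and centring each array on its median removes that offset. Of the called probe sets 46.5% were higher in neonatal brain, and 69.4% after centring. With centred arrays, the differences of Baalc were 1.91 and 0.53, those of Rims2 1.05 (1436470_at) and 0.61 (1443215_at), that of Lrp12 0.41 and that of Ncald -0.12. Centring added a call for 1443215_at of Rims2 (limma adjusted p = 0.0326), as did quantile normalization (0.60, adjusted p = 0.0386), and left Baalc 1436878_at at 0.0552. No direction of the 6 probe sets in this contrast changed with the scaling.

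Likeness to other genes was measured as the Pearson correlation of log2 signal over the 8 arrays, which share contexts and duplications, with the brightest tested probe set of each of the 4 genes. For Ncald the closest were Mypop (0.949), Themis (0.942), 4933406K04Rik (0.942), 4930519F16Rik (0.940) and Msi2 (0.932), 17 probe sets in all at 0.9 or more. All 5 were highest in the 13.5 dpc maternal-15 array, as Ncald was, and without it the correlations were 0.880, 0.855, 0.848, 0.732 and 0.930. For the bright Baalc probe set the closest was A230006K03Rik (0.933), a clone-named transcript of chromosome 7. It was the only one at 0.9 or more, ahead of Kctd7 (0.871), Prune2 (0.850), Hs3st2 (0.847) and Tln2 (0.845). A230006K03Rik differed between the duplications by -1.43 on the mean, higher in maternal-15 arrays in 4 of 4 contexts, and its signal ran from 88.3 to 947. Those arrays carry the paternal duplication of proximal chromosome 7, and whether this transcript lies inside it was not established. It was picked for its correlation with Baalc over the same arrays, so the shared sign is no independent support.

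For Rims2 1436470_at 187 probe sets reached 0.9, led by Csrnp3 (0.994), the ephrin receptor gene Epha5 (0.988), Ano8 (0.985), Mtf1 (0.984) and Gm5124 (0.978). All 5 had their lowest signal in the 13.5 dpc maternal-15 array, where Csrnp3 read 49.2 against 274 in its partner and Epha5 398 against 1220. Without that array their correlations with Rims2 were 0.921 to 0.983. For Lrp12 17 probe sets reached 0.9, led by Grpel2 (0.960), Bloc1s6 (0.952), the planar polarity gene Vangl2 (0.945), Zfp60 (0.944) and Onecut2 (0.941). These 5 also had their lowest signal in that array, where Grpel2 read 79.7 against 492 and Vangl2 1991 against 2715. Without it their correlations with Lrp12 were 0.824 to 0.892. All 5 were higher in paternal-15 arrays in 4 of 4 contexts, as Lrp12 was. They were picked for their correlation with Lrp12 over the same arrays, so the shared sign is no independent support. Leaving out the 13.5 dpc maternal-15 array thus lowered the correlations of all 5 genes with Lrp12. It also lowered those of 4 of the 5 with Rims2, and none of the correlations fell below 0.8.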

How the data were processed

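The 8 samples were hybridised to 1 Affymetrix 430B array each, from 9 µg of total RNA per the labels. The deposited values are intensity signals on a linear scale that the authors made with MAS5 (version not stated), per the submitters' processing notes. Signals under an array's median were taken as no different from background. After removal of 64 control probe sets 22511 remained, of which 14661 had 1 gene symbol, 245 several and 7605 none. Symbols and gene order came from the platform annotation and RefSeq (GRCm38.p6), and no positions are given because the files name no genome build.

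A pseudocount of 58.5, the median of the arrays' 20th percentiles, was added before log2. Probe sets above the array median on at least 2 arrays (13221, 58.7%) entered limma 3.58.1 (R 4.3.3). The additive model had context and duplication as terms and 3 residual degrees of freedom. A model with separate duplication terms for neonatal and embryonic contexts had 2. Benjamini-Hochberg adjustment ran over all tested probe sets, with a threshold of 0.05. The fits were tested on simulated data. A planted log2 difference of 1 was called in 0% of probe sets for cortex minus cerebellum and for 15.5 minus 13.5 dpc. For neonatal minus embryonic it was called in 38.5%. A planted difference of 2 was called in 74.5%, 70% and 88% in the same order of contrasts. Only a small share of the simulated probe sets was changed, in 1 contrast at a time, so these rates need not hold in the data. There 6.59% were called for 15.5 minus 13.5 dpc, among them Vldlr at 0.89, and 30.7% for neonatal minus embryonic. The genes and lists were chosen with earlier results of these data known. The naming rule took all probe sets of the 4 genes, neighbours with 1 sign in 4 of 4 contexts or directly beside a member, up to 4 genes of each list per contrast, and the 5 most correlated probe sets. Alternatives were quantile normalization, median centring, a pseudocount 4 times smaller, a floor of 1, no filter, a strict filter (at least 4 arrays), a variance trend, and leaving out arrays or contexts. Correlations and list counts without the 13.5 dpc maternal-15 array were added after seeing the data.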

Additional observations from a re-analysis of the deposited data

Results flagged for a closer look

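Among the 4 duplication differences of Rims2 1436470_at, 1 per context, the 13.5 dpc value lay far from the others. The gap to the nearest of them was 0.839 of the whole range. This is a description and no test, since such differences chose the genes. The 13.5 dpc log2 difference was 1.49 and the others were -0.34, -0.17 and -0.49. The gap was examined in 6 probe sets, and how often one of this size arises by chance was not established. The values compared are differences in 4 contexts and not replicates of a group. The cause was not tested.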

How the results depend on the processing

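The count of member probe sets with 1 sign in 4 of 4 contexts between the duplications was 5 under each of the 4 scalings and pseudocounts tried. It includes Baalc 1430649_at, which was at background on both 15.5 dpc arrays. When a context was left out, 5 to 6 had 1 sign in all remaining contexts, which is a looser criterion. The count of 6 came without the 13.5 dpc pair. Leaving out the 13.5 dpc pair turned Rims2 1436470_at (range -0.33 to 0.33). The count of member probe sets called between 15.5 and 13.5 dpc (1) was 0 without a filter and 2 with a variance trend, and 0 to 2 on leaving out an array. The count for neonatal minus embryonic (1) was 2 with quantile normalization, with median centring and with a variance trend, and 1 to 2 on leaving out an array. Counts for cortex minus cerebellum were 0 under every alternative that kept both arrays of each region. Leaving out a cortex or cerebellum array leaves 1 array in that region, and no count is given there. For the neonatal minus embryonic duplication effect the count was 0 under every alternative run. So was that of all tested probe sets, and the member count therefore says nothing about the members. When arrays were left out, cortex minus cerebellum ran from -0.47 to 0.05 for Baalc 1436878_at, -0.06 to 0.56 for Rims2 1436470_at, -0.45 to 0.01 for Rims2 1443215_at and -0.19 to 0.01 for Lrp12. The 15.5 minus 13.5 dpc difference ran from -0.30 to 0.00 for Baalc 1436878_at, -0.26 to 0.38 for Rims2 1443215_at and -0.02 to 0.35 for Lrp12. The neonatal minus embryonic duplication effect, with contexts left out, ran from -0.10 to 0.51 for Ncald, -0.40 to 0.07 for Baalc 1430649_at, -1.75 to 0.24 for Rims2 1436470_at and -0.35 to 0.07 for Lrp12. The cause of these changes was not tested. Arrays of a context were paired through the context, which was a block in every fit. By replicate number, no paired analysis was possible because the labels give none.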
